A study of Mus musculus with 10 samples.

Results

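The proteasome is the complex that degrades ubiquitin-tagged proteins, and the messenger RNAs of its subunits were measured here in mouse jejunum, the stretch of small intestine between duodenum and ileum. Genes were taken by symbol, as the Psma, Psmb, Psmc and Psmd families followed by a number and Psme1 to Psme4, without the inducible subunits Psmb8, Psmb9 and Psmb10, and with at least 10 counts in every library. Of 40 genes with such symbols, 38 met the count minimum, out of 55414 gene identifiers in the files, and all 38 were among the 18654 genes tested. The 2 genes below the minimum were Psma8, a subunit known from testis, with 2 to 33 counts per library, and Psmb11, a subunit known from the thymus, with 0 to 2 counts per library. The genes just above it had far more, with Psmd9 lowest at 2628 counts. RNA came from jejunum of male C57BL/6J mice homozygous for floxed Retsat (RetSat flox/flox), which encodes retinol saturase, an enzyme of vitamin A metabolism. The transgene villin-Cre-ERT2 was absent in 5 libraries (control) and present in 5 (RetSat ko). It drives a tamoxifen-activated Cre recombinase in the intestinal epithelium, so other cells of the jejunum keep Retsat. Both groups received tamoxifen for 5 days and were then kept for 14 weeks on a 60 kcal% high-fat diet. The age of the mice was not given in the sources used here. The presence of Cre and the loss of Retsat go together and cannot be told apart.

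The proteasome has a barrel-shaped core of stacked rings. Outer rings of alpha subunits (Psma) form the gate, and inner rings of beta subunits (Psmb) hold the protein-cutting sites. The regulatory particle sits on the ends of the barrel. Its base of ATPases (Psmc) and scaffold proteins unfolds substrates, and its lid (most Psmd genes) removes ubiquitin. Activator caps (Psme) can take the place of the regulatory particle. Subunits are needed in fixed proportions, and the transcription factor NRF1 (gene Nfe2l1) is known to raise their genes together when proteasome activity is short. The intestinal epithelium is among the fastest renewing tissues, and proteins are made and degraded there at a high rate.

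Total counts per library lay between 102844680 and 128730695. Retsat was at 340.2 to 576 CPM (counts per 1000000, scaled by normalization factors) in control and at 15.4 to 33.4 CPM in RetSat ko, a log2 fold change of -4.49 ± 0.277 (SE, edgeR adjusted p = 0.000101), so the labels hold for the targeted gene. All 12 enterocyte markers were detected in every library, with a summed level of 44229.8 to 67111 CPM in control and 38150.2 to 58916 CPM in RetSat ko. Some libraries stood apart. Markers of pancreatic acinar cells summed to 2689 CPM in RetSat ko 2, against 15.1 to 496 CPM in the other 9 libraries, and markers of B cells to 147 CPM in the same library, against 8.95 to 65.4 CPM. Of the 12 acinar markers, 7 (Cpa1, Prss2, Cela2a, Cel, Try4, Try5 and Amy2a2) were at 0 counts in at least 1 library, as were the B cell markers Pax5, Blk and Fcer2a. RetSat ko 1 resembled the control libraries in the enterocyte markers, with a sum of 58920.0 CPM while RetSat ko 2 to 5 had 38150.2 to 40850.0 CPM. In whole tissue, fewer cells of a type and less RNA per cell cannot be told apart. The labels do not say outright that each library came from another animal, and the p-values rest only on the spread among the libraries, which may be technical.

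Proteasome transcripts were abundant. The 38 genes together took 0.417 ± 0.0248% of all counts in control and 0.463 ± 0.0306% in RetSat ko (n = 5 each, ± SD). On the normalized scale the sum was 4311 ± 155 CPM and 4475 ± 187 CPM. Only the second pair of values includes the normalization factors, which were 0.889 in RetSat ko 1, 0.903 to 1.02 in the control libraries and 1.06 to 1.08 in RetSat ko 2 to 5. Levels of different genes were compared per length, as TPM (counts per kilobase of exon, scaled to 1000000 per library). Psme2 and Psme1, subunits of the activator cap that interferon gamma induces, had the highest control levels, at 459 ± 59.0 TPM and 294 ± 34.1 TPM (SD, n = 5). Next came the core subunits Psma6 and Psmb4, at 277 ± 14.2 TPM and 265 ± 15.4 TPM. Psme1 and Psma6 differed by less than the SD of Psme1. Psmd9 and Psmd5, which help to assemble the regulatory particle and are not part of the finished complex, had the lowest, at 9.61 ± 0.846 TPM and 10.6 ± 0.299 TPM. Above them stood Psme4, the large nuclear activator cap, and the lid subunit Psmd11, at 32.5 ± 2.42 TPM and 32.7 ± 1.02 TPM. The alpha ring genes spanned 43.7 to 277 TPM, the beta ring 58.3 to 265 TPM, the ATPases 45.2 to 226 TPM and the lid 32.7 to 125 TPM, although subunits of a ring are needed in equal numbers. The length in the files is that of all annotated exons of a gene, so a gene with long but rarely used exons has a level that is too low.

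**Figure D1:**
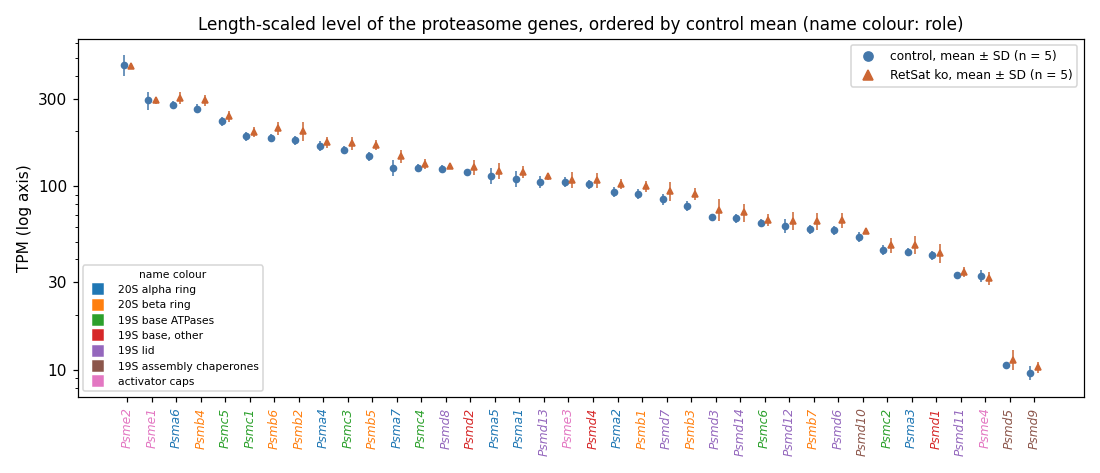
Length-scaled level (TPM, log axis) of each of the 38 proteasome genes on the horizontal axis, ordered by the control mean, as mean ± SD of 5 control (circles) and 5 RetSat ko libraries (triangles), with gene names coloured by role. The order runs from Psme2 at 459 TPM down to Psmd9 at 9.61 TPM, and the symbols of the groups lie close together at every gene.

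The comparison asks how jejunal transcripts under a high-fat diet differ between RetSat ko and control, here for the proteasome. The 38 genes stayed close to their control levels. In edgeR's quasi-likelihood test 0 of 38 passed an adjusted p of 0.05 (adjusted p from 0.321 to 0.989), where 0.0322% of all 18654 genes did. DESeq2 also called 0 of the 38, where 1.04% of the genes to which it gave an adjusted p passed, and limma-voom 0 of the 38, where 0.0322% passed. At an unadjusted p under 0.05, 4 of 38 were higher (Psmb3, Psmb5, Psma7 and Psmd6), where 6.79% of all genes were higher, and 0 of 38 were lower, where 5.45% were. The log2 fold changes ranged from -0.078 to 0.17, with a median of 0.059, against 0.020 over all genes tested. Standard errors were 0.0529 to 0.0859, against a median of 0.150 over all genes. The 95% intervals of the 38 log2 fold changes, unadjusted for their number, reached from -0.25 (Psme4) to 0.31 (Psma7), that is from 0.840 to 1.24 times the control level.

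The sign of the small differences followed the parts of the complex. All 34 genes of the core, the regulatory particle and its assembly had a positive log2 fold change, and all 4 activator caps a negative one, where 53.9% of all genes tested were positive. This split is a count without a test. Outside the caps the genes tended to vary together between libraries, so their signs are not separate observations. The split also moved with the scaling. With RLE factors 32 of the 34 were positive (Psmd1 and Psmd8 turned negative), with upper-quartile factors Psme3 turned positive, and with library totals and no normalization factors all 38 were positive, where 71.4% of all genes were. Library totals, tried after seeing the data, moved the median of all genes to 0.12 and that of the 38 to 0.16. Without RetSat ko 1, when 846 of 19001 genes (4.45%) passed, still 0 of the 38 did (adjusted p from 0.136), and 30 of the 34 were positive. Leaving out control 4 gave a median of 0.039 for the 38 against 0.026 for all genes, with 30 of the 34 positive. Without the 4 libraries highest in acinar markers (RetSat ko 1 and 2, control 4 and 5) 0 of 38 passed, 23 of the 34 were positive and the median was 0.032 against 0.025 for all genes, with 3 of the 4 caps negative. With the 3 libraries left out that were high in B cell markers (RetSat ko 2 and 3, control 4), 0 passed, all 34 and 2 of the 4 caps (Psme3 and Psme4) were positive, and the median was 0.068 against 0.0022 for all genes.

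**Figure D2:**
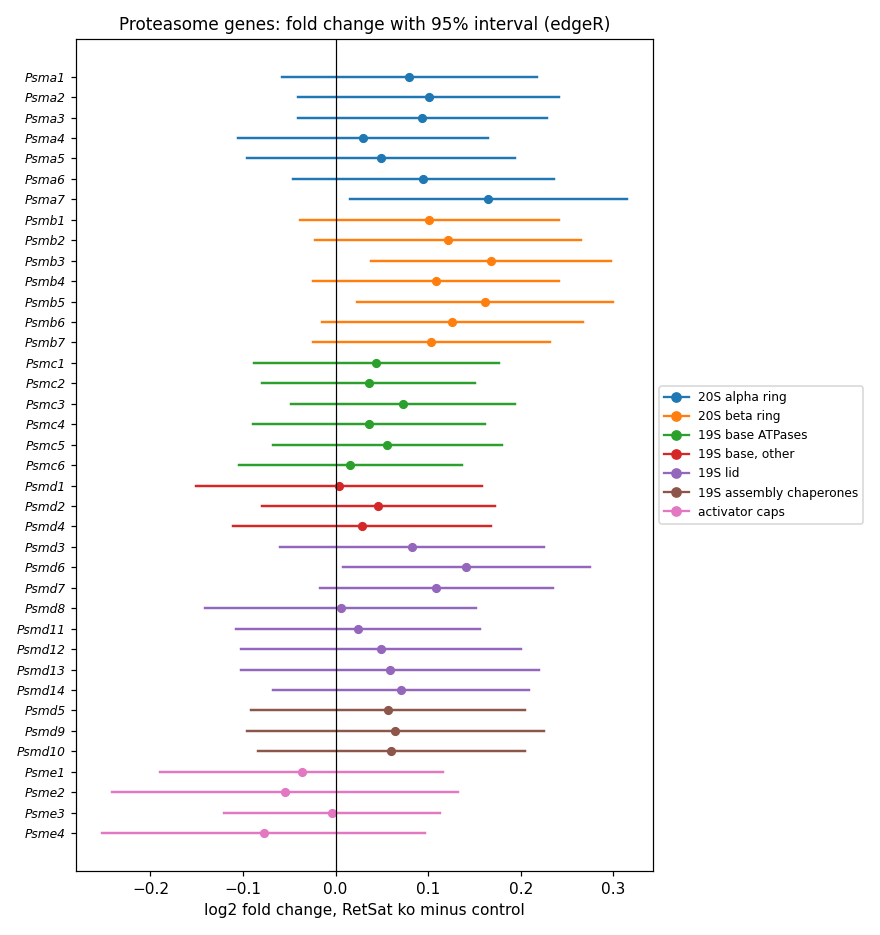
Log2 fold change of RetSat ko against control (horizontal axis) for each of the 38 genes (vertical axis), with 95% intervals from edgeR and colours by role. Points of the core and regulatory particle lie right of 0, those of the 4 activator caps left of it, and the intervals of Psma7, Psmb3, Psmb5 and Psmd6 do not reach 0.

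Markers of other cells and states also leaned in one direction in the same comparison, as counts of signs without a test. All 12 markers of cycling cells had positive log2 fold changes, with a summed level of 482 to 554 CPM in control and 485 to 669 CPM in RetSat ko, and 0 passed the threshold. All 12 enterocyte markers had negative ones, and 0 passed. At an unadjusted p under 0.05, 6 of the 12 cycling markers were higher, where 6.79% of all genes were. At that p, 7 of the 12 enterocyte markers were lower, where 5.45% of all genes were. RetSat ko 1 had a low cycling sum (485 CPM) beside a high proteasome level. RetSat ko 5 had the highest cycling sum (669 CPM) and also a high proteasome level. Control 4 had a low cycling sum (494.5 CPM) and the lowest proteasome level. No cycling or enterocyte marker was at 0 in any library. All tested markers of Paneth cells (8), acinar cells (11), B cells (8) and smooth muscle (9) were positive, with 0 passing, and the Paneth markers summed to 1125 to 3505 CPM in control and 2143 to 5234 CPM in RetSat ko. Plasma cell markers were positive in 5 of 6 and adipocyte markers in 7 of 8, again with 0 passing, and Adipoq, Lep and Retn were at 0 in at least 1 library. At an unadjusted p under 0.05, 5 Paneth, 3 adipocyte and 1 plasma cell markers were higher, and 0 acinar, B cell and smooth muscle markers. The part of all these cells in the proteasome values was not tested.

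The promoters of the 4 genes with the smallest p are shown, since these are the members whose intervals lay above 0. They are the 250 bases before the annotated start site, from RefSeq on GRCm38.p6, an older build than the GRCm39 of the counts. Capitals mark CCAAT (the NF-Y box), CCGGAAG (the core bound by ETS factors) and TGACNNNGC (the core of the antioxidant response element, which NRF1 is known to bind), each searched on both strands. The motifs do not overlap each other in these sequences. Psmd6 lies on the minus strand in GRCm38.p6 and on the plus strand in GRCm39.
Psmb3 (chr11:97703184-97703433, plus strand): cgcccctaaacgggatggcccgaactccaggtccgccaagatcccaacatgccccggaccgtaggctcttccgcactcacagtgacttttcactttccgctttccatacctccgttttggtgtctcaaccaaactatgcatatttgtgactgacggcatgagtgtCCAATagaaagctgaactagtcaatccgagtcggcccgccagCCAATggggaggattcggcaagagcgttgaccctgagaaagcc
Psmb5 (chr14:54617996-54618245, minus strand): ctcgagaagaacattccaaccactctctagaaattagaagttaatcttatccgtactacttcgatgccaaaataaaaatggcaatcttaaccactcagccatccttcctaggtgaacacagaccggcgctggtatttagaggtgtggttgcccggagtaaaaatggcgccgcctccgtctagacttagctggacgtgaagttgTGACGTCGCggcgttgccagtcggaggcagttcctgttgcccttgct
Psma7 (chr2:180042465-180042714, minus strand): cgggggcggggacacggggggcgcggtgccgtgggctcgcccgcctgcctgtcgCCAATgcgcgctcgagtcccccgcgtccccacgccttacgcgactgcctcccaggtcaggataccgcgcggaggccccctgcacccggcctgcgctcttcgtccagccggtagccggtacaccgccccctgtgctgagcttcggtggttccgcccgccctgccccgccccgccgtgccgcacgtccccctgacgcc
Psmd6 (chr14:14120946-14121195, minus strand): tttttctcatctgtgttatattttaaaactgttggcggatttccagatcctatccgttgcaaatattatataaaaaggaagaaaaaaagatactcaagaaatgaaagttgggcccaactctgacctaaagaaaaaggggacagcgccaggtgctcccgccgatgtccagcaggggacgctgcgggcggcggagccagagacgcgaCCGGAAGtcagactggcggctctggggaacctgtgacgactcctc

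The promoter of Psmb3 held CCAAT at 2 places and that of Psma7 at 1, that of Psmb5 held TGACNNNGC 47 bases before the start, and that of Psmd6 held CCGGAAG. The RefSeq table had promoters of 32 of the 38 genes, without Psmb1, Psmb2, Psmb7, Psmc3, Psmd3 and Psmd7. The ETS core was found in 11 of the 32 (34.4%), against 6.91% of all 32851 promoters in the table and 10.2% of 17492 protein-coding genes. Its carriers were Psma6, Psmc1, Psmc2, Psmc6, Psmd2, Psmd4, Psmd6, Psmd11, Psmd12, Psme3 and Psme4, that is 8 of the 14 regulatory particle subunits with a promoter, 1 of the 11 core subunits, 2 of the 4 caps and none of the 3 assembly chaperones. CCAAT was found in 12 of 32 (37.5%), against 33.8% of all promoters and 39.5% of protein-coding genes, with 5 of the 12 in the alpha ring. TGACNNNGC was found in 5 (Psmb5, Psmb6, Psmc6, Psmd12 and Psmd9, 15.6%), against 10.2% and 12%. A match describes letters in the window and not a site in use. Neither background was matched to the 38 genes in expression level, so the shares do not show a trait particular to the proteasome.

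The beta ring of the core had the highest median log2 fold change of all parts, 0.12 over 7 genes, all positive (0.10 to 0.17). At an unadjusted p under 0.05, 2 of 7 were higher, where 6.79% of all genes were. Psmb3, a subunit without a cutting site (chromosome 11, 97594225 to 97604326, GRCm39), was at 70.4, 72.5, 69.0, 63.0 and 70.3 CPM in control 1 to 5 and at 80.4, 78.7, 75.1, 72.0 and 81.4 CPM in RetSat ko 1 to 5. Its RetSat ko libraries lay above the control libraries except RetSat ko 4, which lay just under control 2. The log2 fold change of Psmb3 was 0.17 ± 0.0595 (SE, adjusted p = 0.321 in edgeR). Psmb5, which carries the chymotrypsin-like site and is the target of the drug bortezomib, was at 52.7, 51.8, 51.4, 44.7 and 51.2 CPM in control 1 to 5 and at 59.4, 58.6, 55.7, 51.7 and 56.2 CPM in RetSat ko 1 to 5. Control 4 was lowest and RetSat ko 4 lay among the control values. The difference for Psmb5 was 0.16 ± 0.0637 (SE, adjusted p = 0.353 in edgeR), or 0.023 to 0.30 as a 95% interval. Psmb6, which carries the caspase-like site, was at 138, 132, 138, 117 and 136 CPM in control 1 to 5 and at 149, 146, 137, 139 and 151 CPM in RetSat ko 1 to 5. Here the groups overlapped at RetSat ko 3, and the log2 fold change was 0.13 ± 0.0648 (SE, adjusted p = 0.449 in edgeR). Psmb4, another subunit without a cutting site, was the only gene of the 38 whose groups did not overlap, with 179.9 to 208 CPM in control and 209 to 218 CPM in RetSat ko. Over all genes, 1.58% were higher without overlap and 0.729% lower. Psmb4 is given here after its values were seen, with a log2 fold change of 0.11 ± 0.0611 (SE, adjusted p = 0.486 in edgeR). Without RetSat ko 3 the number of such genes was 6 (2.07% of all genes higher and 0.917% lower), and without RetSat ko 4 it was 4 (2.61% and 1.41%). Psmb7, which carries the trypsin-like site, had 0.10 ± 0.0588 (SE, adjusted p = 0.492 in edgeR), but its exons share bases with those of Nek6 on the opposite strand, and counting without strand cannot separate their reads. Psmb1 and Psmb2, which have no cutting site, had 0.10 and 0.12.

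All 7 alpha ring genes were positive as well, with a median of 0.094. Of the 7, 1 was higher at an unadjusted p under 0.05, where 6.79% of all genes were. The alpha subunits form the ring that regulators dock to, and their tails close the gate. Psma7 (chromosome 2, 179678167 to 179684226) was at 153, 162, 138, 137 and 151 CPM in control 1 to 5 and at 173, 175, 159.7, 153 and 171 CPM in RetSat ko 1 to 5. RetSat ko 1, 2 and 5 lay above all control libraries, and the other two lay within the control range. Its log2 fold change was 0.17 ± 0.0687 (SE, adjusted p = 0.369 in edgeR). Psma2 was at 133, 139, 134, 121 and 132 CPM in control 1 to 5 and at 155, 141, 131, 136 and 144 CPM in RetSat ko 1 to 5, with RetSat ko 3 and 4 inside the control range. That difference was 0.10 ± 0.0646 (SE, adjusted p = 0.547 in edgeR). Psma3 was at 68.5, 66.1, 67.9, 62.2 and 61.5 CPM in control 1 to 5 and at 68.3, 67.0, 64.7, 72.1 and 76.0 CPM in RetSat ko 1 to 5. RetSat ko 4 and 5 stood above the control libraries and the others among them, and the log2 fold change was 0.094 ± 0.0620 (SE, adjusted p = 0.560 in edgeR). The remaining alpha subunits Psma6, Psma1, Psma5 and Psma4 had 0.095, 0.080, 0.049 and 0.030.

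The 6 ATPases that unfold substrates had a median log2 fold change of 0.040, all positive, with 0 at an unadjusted p under 0.05. Psmc3 was at 162, 161, 160.1, 151 and 158 CPM in control 1 to 5 and at 169, 163, 159, 165 and 177 CPM in RetSat ko 1 to 5. RetSat ko 1, 2, 4 and 5 were above all controls and RetSat ko 3 among them, and the log2 fold change was 0.073 ± 0.0555 (SE, adjusted p = 0.613 in edgeR). Psmc5 was at 122, 126, 123, 114 and 117 CPM in control 1 to 5 and at 131, 125, 119.7, 120.4 and 130.0 CPM in RetSat ko 1 to 5. RetSat ko 1 and 5 were the highest, and the difference was 0.056 ± 0.0568 (SE, adjusted p = 0.718 in edgeR). Psmc1 was at 143, 144, 141, 127 and 139 CPM in control 1 to 5 and at 152, 138, 136, 139.6 and 148 CPM in RetSat ko 1 to 5. Only RetSat ko 1 and 5 exceeded every control there, and the difference was 0.044 ± 0.0608 (SE, adjusted p = 0.796 in edgeR). Psmc4, Psmc2 and Psmc6 had 0.036, 0.036 and 0.016. The interval of Psmc2 was -0.079 to 0.15. Beside the ATPases the base holds Psmd2 and Psmd1, the large scaffolds, and Psmd4, a receptor for ubiquitin chains. Psmd2 was at 186, 184, 191, 183 and 178 CPM in control 1 to 5 and at 192, 187, 178, 197 and 199.7 CPM in RetSat ko 1 to 5. RetSat ko 3 was the lowest of the 10 and RetSat ko 5 the highest, and the log2 fold change was 0.046 ± 0.0577 (SE, adjusted p = 0.772 in edgeR). Psmd4 was at 117, 113, 112, 98.4 and 111 CPM in control 1 to 5 and at 115, 113, 105, 110.2 and 120.0 CPM in RetSat ko 1 to 5, with control 4 lowest and a difference of 0.028 ± 0.0640 (SE, adjusted p = 0.884 in edgeR). Psmd1 had 0.0036 ± 0.0712 (SE).

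The 8 lid genes had a median of 0.065. Of the 8, 1 was higher at an unadjusted p under 0.05, where 6.79% of all genes were. Psmd6 (chromosome 14, 8348779 to 8357589), a structural lid subunit, was at 64.6, 63.9, 62.1, 57.9 and 60.5 CPM in control 1 to 5 and at 70.7, 66.8, 62.5, 66.6 and 74.3 CPM in RetSat ko 1 to 5. RetSat ko 1, 2, 4 and 5 lay above all 5 control libraries and RetSat ko 3 among them. The log2 fold change of Psmd6 was 0.14 ± 0.0615 (SE, adjusted p = 0.389 in edgeR). Psmd7, the partner of the ubiquitin-removing enzyme Psmd14, was at 75.6, 76.6, 71.9, 72.9 and 71.1 CPM in control 1 to 5 and at 77.4, 82.0, 72.2, 80.8 and 84.5 CPM in RetSat ko 1 to 5. RetSat ko 1, 2, 4 and 5 again exceeded every control, and the difference was 0.11 ± 0.0580 (SE, adjusted p = 0.468 in edgeR). Psmd3, another structural subunit, was at 131, 131, 137, 124 and 127 CPM in control 1 to 5 and at 131, 133, 127, 147 and 150.4 CPM in RetSat ko 1 to 5. RetSat ko 4 and 5 alone were above the control range, and the log2 fold change was 0.083 ± 0.0655 (SE, adjusted p = 0.628 in edgeR). Psmd14, which cuts ubiquitin chains off the substrate, had 0.071 ± 0.0635 (SE). The others were Psmd13 with 0.059, Psmd12 with 0.049, Psmd11 with 0.024 and Psmd8 with 0.0053. Psmd13 shares exon bases with Sirt3 on the opposite strand, so its value is uncertain.

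The 3 chaperones that help to assemble the regulatory particle had log2 fold changes of 0.056 to 0.065. Psmd10, also known as gankyrin, was at 30.4, 30.5, 28.8, 28.9 and 31.1 CPM in control 1 to 5 and at 35.4, 28.9, 31.9, 29.7 and 30.2 CPM in RetSat ko 1 to 5. RetSat ko 1 and 3 lay above the control libraries and the other 3 among them, with a log2 fold change of 0.060 ± 0.0662 (SE, adjusted p = 0.740 in edgeR). Psmd9 was at 27.1, 29.1, 27.5, 22.7 and 27.1 CPM in control 1 to 5 and at 29.1, 28.9, 27.1, 25.7 and 28.8 CPM in RetSat ko 1 to 5, with control 4 lowest, and its difference was 0.065 ± 0.0737 (SE, adjusted p = 0.751 in edgeR). Psmd5 was at 30.8, 28.7, 30.2, 26.9 and 30.2 CPM in control 1 to 5 and at 29.7, 29.8, 27.9, 31.2 and 34.1 CPM in RetSat ko 1 to 5. RetSat ko 5 was highest and control 4 lowest, and the log2 fold change was 0.056 ± 0.0682 (SE, adjusted p = 0.763 in edgeR).

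The 4 activator caps differed in sign from the rest, with a median of -0.046 and 0 at an unadjusted p under 0.05. Psme4, the nuclear cap known from DNA repair and sperm development, was at 101, 103, 109, 109 and 98.6 CPM in control 1 to 5 and at 116, 99.3, 84.1, 99.0 and 95.8 CPM in RetSat ko 1 to 5. RetSat ko 1 was the highest of all 10 libraries and RetSat ko 3 the lowest, and the log2 fold change was -0.078 ± 0.0800 (SE, adjusted p = 0.719 in edgeR). It was -0.14 without RetSat ko 1, where Psme4 was the 1 gene of the 38 that was lower at an unadjusted p under 0.05 (12.2% of all genes, adjusted p = 0.211 in edgeR), and -0.026 without RetSat ko 3. Psme2 (chromosome 14, 55824898 to 55828570) was at 308, 342, 276, 321 and 299 CPM in control 1 to 5 and at 348, 282, 298, 279 and 280.3 CPM in RetSat ko 1 to 5. RetSat ko 1, control 2 and control 4 were the 3 highest, and the difference was -0.055 ± 0.0859 (SE, adjusted p = 0.826 in edgeR). Psme1, its partner in the same cap and near it on the chromosome (chromosome 14, 55815580 to 55818986), was at 246, 281, 240.2, 243 and 229 CPM in control 1 to 5 and at 257, 230.1, 244, 235 and 242 CPM in RetSat ko 1 to 5. Control 2 was highest, and the log2 fold change was -0.036 ± 0.0703 (SE, adjusted p = 0.860 in edgeR). Psme3, which forms a cap of its own in the nucleus, had -0.0041 ± 0.0536 (SE, adjusted p = 0.983 in edgeR), with an interval of -0.12 to 0.11. The negative sign of Psme3 was lost with upper-quartile factors and with sample weights in limma-voom, and that of all 4 with library totals. Psme3 also turned positive without control 1, control 4, RetSat ko 1 or RetSat ko 3, and Psme1 without control 2 (0.011). Markers of the interferon response, which raises Psme1 and Psme2, had a summed level of 1955 to 2879 CPM in control and 1694 to 2684 CPM in RetSat ko. All 12 were detected in every library and had negative log2 fold changes, and 0 passed. The 3 libraries with the highest sums were control 2, RetSat ko 1 and control 4, with 2879, 2684 and 2671 CPM. They were also the 3 highest for Psme2. For Psme1 control 2 and RetSat ko 1 were highest, but control 4 (243 CPM) lay below control 1 (246 CPM) and RetSat ko 3 (244 CPM). Control 2, RetSat ko 1 and control 4 were also highest in the 9 markers of T and intraepithelial lymphocytes, all detected in every library. Those sums were 361, 206 and 272 CPM, against 101 to 168 CPM in the other 7. Those 9 markers were all negative in RetSat ko with 0 passing. The part of these cells and of the interferon response in the values of the caps was not tested.

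**Figure D3:**
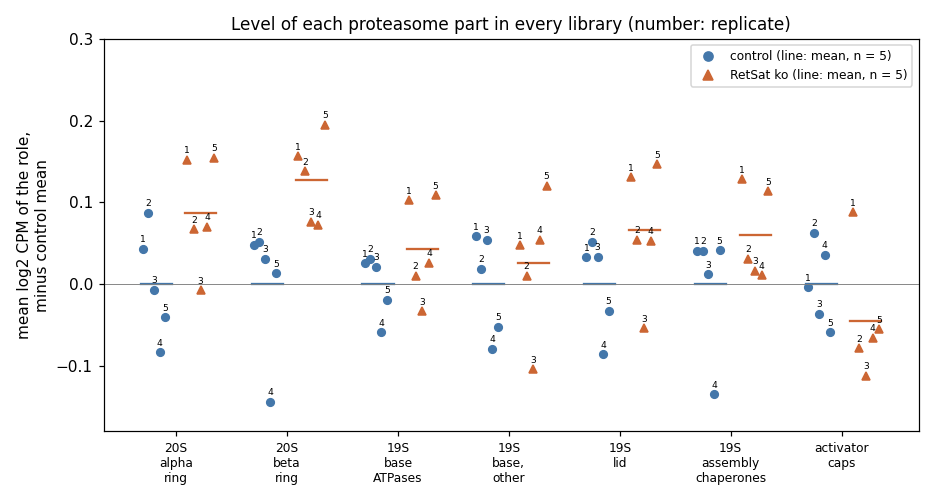
Mean log2 CPM of the genes of each proteasome part (horizontal axis) in every library, minus the mean of the control libraries (vertical axis, log2), with control as circles, RetSat ko as triangles, replicate numbers beside the symbols and lines at the means of 5. RetSat ko 1 and 5 stand highest in the core parts (0.15 to 0.19), and control 4 is lowest in the beta ring (-0.14). In the caps RetSat ko 1 is highest (0.088) and RetSat ko 3 lowest (-0.11), but control 4 is not low (0.036) and RetSat ko 5 not high (-0.055).

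Outside the caps, the same libraries tended to be high or low in each part. Averaged over all 38 genes, RetSat ko 5 and RetSat ko 1 stood 0.13 and 0.12 above the control mean on the log2 scale and control 4 stood at -0.082. RetSat ko 3 stood at -0.023, below control 1, 2 and 3 and level with control 5. This mean varied between the libraries of a group with an SD of 0.0584, and the median within-group SD of the single genes was 0.0840. After the mean of all 38 was subtracted from each library, that median was 0.0558. All 38 genes had a within-group SD under 0.129, the median over the 5111 genes tested in the same range of mean CPM (27.3 to 303). Psme3 was the steadiest with 0.0479, followed by the ATPases Psmc3 and Psmc2 with 0.0497 and 0.0506. Psme4 and Psme2 varied most, with 0.126 each, and for Psme2, Psme3 and Psmd10 the subtraction did not lower the SD (0.127, 0.0722 and 0.0899). Psmc5 and Psmc3 followed the common level most closely, with remaining SDs of 0.0193 and 0.0230.

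**Figure D4:**
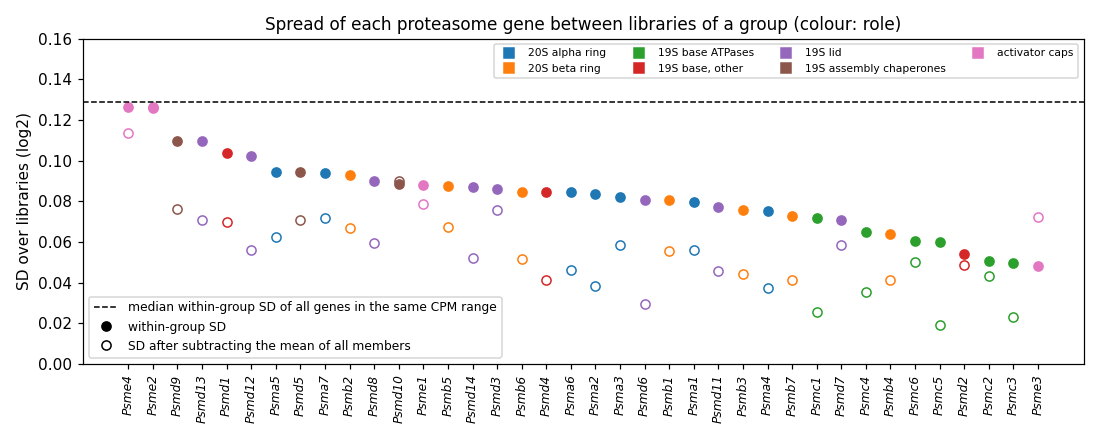
SD over libraries within groups of each of the 38 genes (vertical axis, log2 scale, filled circles) and the SD left after subtracting the mean of all 38 genes in each library (open circles), with colours by role. The dashed line is the median of 5111 genes in the same CPM range (0.129), and all filled circles lie below it.

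Of the core subunits, Psmb5, Psmb6 and Psmb7 have inducible counterparts, Psmb8, Psmb9 and Psmb10, which take their places in the immunoproteasome. Psmb8 stood at 0.721, 0.999, 0.600, 1.08 and 0.697 times the TPM of Psmb5 in control 1 to 5 and at 0.717, 0.564, 0.656, 0.635 and 0.555 times in RetSat ko 1 to 5. Control 2 and 4, high in lymphocyte and interferon markers, were the highest, and RetSat ko 2 and 5 the lowest. RetSat ko 1, also high in these markers, had 0.717, just below control 1 with 0.721. The part of those cells and of interferon in this ratio was not tested. The log2 ratio was -0.33 ± 0.360 in control and -0.68 ± 0.155 in RetSat ko (n = 5 each, ± SD), and the difference did not pass (two-sided exact permutation test, p = 0.0714, adjusted over 3 pairs 0.214, smallest possible p 0.00794). For Psmb9 over Psmb6 the log2 ratio was -1.60 and -1.83 (exact permutation adjusted p = 0.476), and for Psmb10 over Psmb7 it was 2.65 and 2.58 (exact permutation adjusted p = 0.579). Psmb10 thus had several times the length-scaled level of Psmb7 in every library, while Psmb9 had less than Psmb6 in every library. The ratio for Psmb7 rests on its annotated exon length and on counts that the exon overlap with Nek6 makes uncertain. These ratios were chosen after the data were seen. On their own, the inducible genes had log2 fold changes of -0.21, -0.14 and 0.025 (edgeR adjusted p from 0.551 to 0.937).

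**Figure D5:**
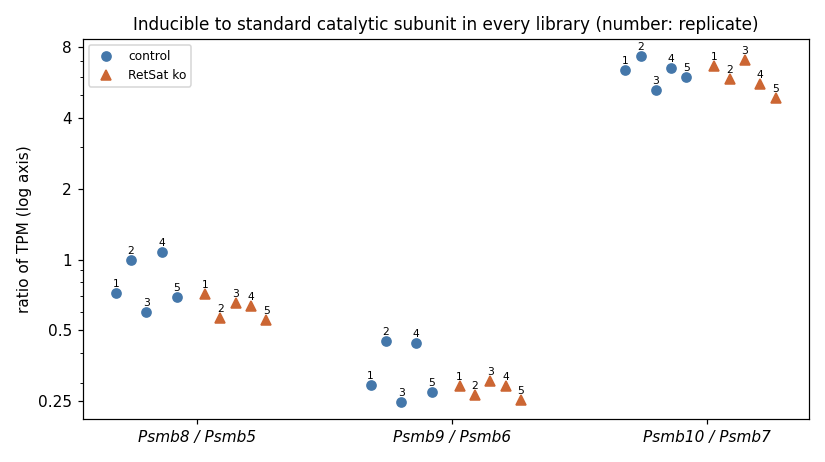
Ratio of TPM of each inducible catalytic subunit to the standard subunit it replaces (vertical axis, log scale) in every control (circles) and RetSat ko library (triangles), with replicate numbers. Control 2 and 4 stand highest for Psmb8 over Psmb5 (0.999 and 1.08) and for Psmb9 over Psmb6 (0.452 and 0.443), and the groups overlap in all 3 pairs.

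Other genes of the pathway gave 0 calls in edgeR with all libraries. Among 16 tested factors that build, hold or regulate the proteasome (17 listed, with Paaf1 not matched by symbol), 11 were positive and 5 negative. Their median was 0.063, and 4 were higher and 1 lower at an unadjusted p under 0.05. All genes tested had a median of 0.020, with 53.9% positive, and 6.79% were higher and 5.45% lower at that p. The assembly chaperones of the core Psmg2 and Psmg1 had 0.25 ± 0.0809 and 0.26 ± 0.0958 (log2, SE), and Ecpas, a scaffold that holds core and regulatory particle together, had -0.17 ± 0.0642 (edgeR adjusted p from 0.307 to 0.331). Of 9 genes of NRF1 and its control, 3 were positive and 6 negative, with -0.30 ± 0.115 for Sel1l, a part of the ubiquitin ligase of the endoplasmic reticulum, -0.13 ± 0.0767 for Ngly1, the enzyme that activates NRF1 by removing its sugars, and -0.12 ± 0.0734 for Uggt1, a folding sensor. Their edgeR adjusted p were 0.338 to 0.531. Of 15 tested genes that supply or deliver ubiquitin (16 listed, with Ddi1 below the count filter), 5 were positive and 10 negative. Rps27a, which encodes ubiquitin fused to a ribosomal protein, had 0.29 ± 0.0678, with every RetSat ko library above every control library, and Nploc4, a partner of the unfoldase Vcp, had -0.15 ± 0.0655 (edgeR adjusted p from 0.291 to 0.378). DESeq2 called Rps27a (adjusted p = 0.0279), which has processed copies that can take its reads. Of 17 cytosolic chaperones, 16 were positive (median 0.15), 7 of them at an unadjusted p under 0.05. Over all genes, 53.9% were positive and 6.79% were higher at that p. Cct3, a subunit of the ring chaperonin that folds actin and tubulin, had 0.22 ± 0.0641. The heat shock genes Hspa1b and Hspa1a, near-identical copies with uncertain counts, had 2.60 ± 0.885 and 3.04 ± 1.11 (edgeR adjusted p from 0.291 to 0.343 for the 3). Without RetSat ko 1, Psmg2, Rps27a and Cct3 were higher and Sel1l lower over all genes in edgeR (adjusted p from 0.0353 to 0.0460), when 4.45% of all genes passed. The transcript of NRF1 itself, Nfe2l1, which is named outside the rule for named genes, had -0.025 ± 0.0622.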

How the data were processed

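The deposited values are raw read counts per gene, 1 library per file. The submitters' processing notes name Trimmomatic, STAR and the build GRCm39. Per the file headers, featureCounts 2.0.1 assigned reads to GENCODE M28 exons, summed by gene. The command sets no strand, so genes that overlap on opposite strands cannot be told apart (9 of the 38 proteasome genes share exon bases with another gene), and reads that fit near-identical copies are not counted by default. The files also give each gene's exon length in bases.

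Symbols were matched by identifier for 52081 of 55414 genes (94.0%), and 0.810% of counts had no symbol. Counts were analysed in R 4.3.3 with edgeR 4.0.16 (filterByExpr, TMM, robust quasi-likelihood F-test without covariates). Benjamini-Hochberg adjustment ran over all 18654 genes tested. The SE of a log2 fold change was taken from its F statistic, and its 95% interval from the test's degrees of freedom. Libraries were grouped by genotype in the labels. Alternatives were RLE and upper-quartile factors, library totals, no filter, 1 CPM in 5 libraries, DESeq2 1.42.0, limma-voom 3.58.1 with and without sample weights, 1 surrogate variable (sva 3.50.0), a block for the replicate number and leaving out libraries. On simulated counts for RetSat ko against control (18184 genes tested), 46% of genes changed 1.5-fold and 82% of those changed 2-fold were recovered. The changed genes were drawn at random from all genes above a low level. These shares therefore do not describe the 38 genes, whose SEs were smaller (0.0529 to 0.0859, against a median of 0.150 over all genes). The genes and lists were chosen with earlier results of these data known. Values in every library are given for the genes with the smallest p in each part (3 in parts with 6 or more listed genes, otherwise 2) and for the 2 highest and 2 lowest by TPM, and up to 3 genes per pathway list are named. Some results on single genes are not reported here. Depth was 102844680 to 128730695 counts per library.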

Additional observations from a re-analysis of the deposited data

Results flagged for a closer look

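Of 76 groups checked (38 genes in control and in RetSat ko), 6 held a library far from the other 4, where chance gives about 1 in 20 for a single group. The groups share the same libraries and are not independent, and all 6 fell on control 4 or RetSat ko 1. In control, control 4 was the low library for Psmb1 (142 CPM, next 161), Psmb5 (44.7, next 51.2), Psmc1 (127, next 139) and Psmd8 (133, next 147). Among the RetSat ko libraries, RetSat ko 1 was the high library for Psmd8 (165 CPM, next 144) and Psme2 (348 CPM, next 298). Without control 4, the log2 fold change was 0.061 for Psmb1 (0.10 with all libraries), 0.12 for Psmb5 (0.16), 0.012 for Psmc1 (0.044) and -0.028 for Psmd8 (0.0053). Without RetSat ko 1, it was -0.041 for Psmd8 and -0.12 for Psme2 (-0.055 with all libraries).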

How the results depend on the processing

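None of the 38 proteasome genes passed under any alternative run. The count of all genes called was 6 in edgeR, 123 in DESeq2 and 10 in limma-voom with sample weights, and 5 to 846 with each library left out in turn, where 846 belongs to RetSat ko 1. Proteasome genes higher at an unadjusted p under 0.05 numbered 4 (6.79% of all genes), and 7 (7.75%) with upper-quartile factors, 2 (4.55%) without a filter, 21 (12.1%) with library totals, 0 (7.97%) without the 4 libraries high in acinar markers and 1 (2.29%) without the 3 high in B cell markers. Leaving out each library in turn gave 1 to 6 (4.52 to 11.4% of all genes), with 2 without control 3, 1 without control 4, 1 without RetSat ko 2 and 2 without RetSat ko 5, and Psme4 was lower without RetSat ko 1. Genes whose groups do not overlap numbered 1, 3 with upper-quartile factors (1.52% of all genes higher, 0.852% lower), and 1 to 6 with a library left out (1.70 to 5.97% higher, the most without RetSat ko 1), with 2 without control 2 (2.48% higher). The median log2 fold change of the 38 was 0.16 with library totals, and 0.039 (without control 4) to 0.082 (without control 2) with a library left out. The correlations of same-numbered libraries were -0.149 to 0.00212, against a median of 0.0307 for libraries of other numbers. These values gave no sign of pairing by replicate number, but they cannot show that there was none. With the replicate block 4 genes and 0 proteasome genes were called, 3 of the 38 were higher at an unadjusted p under 0.05, and the median was 0.058. Without the 4 libraries highest in acinar markers, the sign turned for Psma4 (-0.051), Psmc1 (-0.012), Psmc5 (-0.0052), Psmc6 (-0.023), Psmd1 (-0.054), Psmd4 (-0.030), Psmd8 (-0.078), Psmd11 (-0.047), Psmd12 (-0.022), Psmd13 (-0.070), Psmd9 (-0.036), Psme3 (0.022) and Psmb10 (-0.054). With RLE factors, the sign turned for Psmd1 (-0.0066) and Psmd8 (-0.0043). Without a filter, the sign turned for Psmd1 (-0.00040). In DESeq2, the sign turned for Psmd1 (-0.0066) and Psmd8 (-0.0044). With sample weights in limma-voom, the sign turned for Psmd8 (-0.045), Psme3 (0.0011) and Psmb10 (-0.0046). With 1 surrogate variable, the sign turned for Psmd8 (-0.0024). With library totals (tried after seeing the data), the sign turned for Psme1 (0.057), Psme2 (0.032), Psme3 (0.10) and Psme4 (0.014). With upper-quartile factors, the sign turned for Psme3 (0.016). Without the 3 libraries highest in B cell markers, the sign turned for Psme3 (0.024), Psme4 (0.00021) and Psmb10 (-0.017). With a library left out, the turned values lay in the ranges Psma4 -0.00083 to 0.054, Psmb10 -0.025 to 0.10, Psmc6 -0.0030 to 0.039, Psmd1 -0.028 to 0.047, Psmd11 -0.0067 to 0.047, Psmd4 -0.011 to 0.052, Psmd8 -0.041 to 0.025, Psme1 -0.064 to 0.011 and Psme3 -0.023 to 0.011. With the 4 acinar-high libraries left out, Retsat lost its call (-4.51, adjusted p = 0.0918 in edgeR, 3 against 3 libraries). The cause of these shifts was not tested. Depth as a limit was not tested, and the lowest count of a proteasome gene in any library was 2628.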
